A study of Mus musculus with 237 samples.

Results

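From the 36186 gene entries of the deposited expression table, 9 that encode secreted glycoproteins of the extracellular matrix were chosen and followed across the cells of the embryonic mouse kidney. They were taken by symbol and are a subset of such genes: Vcan (versican), Tnc (tenascin C), Fn1 (fibronectin), Postn (periostin), Sparcl1, Sparc, Matn2 (matrilin 2), Fbn1 and Fbn2 (the fibrillins). Vcan and Tnc were set against Postn, Sparcl1 and Fn1. Each symbol stood on 1 entry. The samples were 237 single cells from kidneys of mixed strain background, enriched by flow sorting and captured in a microfluidic device. Of these, 74 were wild-type E18.5 (the embryonic day) cap mesenchyme and its descendants, 71 wild-type E18.5 interstitium and 44 Pax2 mutant E18.5 cap mesenchyme. A further 18 were wild-type E13.5 cap mesenchyme with its descendants and 29 were Pax2 mutant E13.5 cap mesenchyme, and 1 cell with contradictory labels entered no group. The series asks how Pax2, a transcription factor of the nephron lineage, relates to the boundary between nephron progenitors and interstitium. The labels name neither the mutant allele nor the sort marker of the cap cells, and the titles of the interstitium cells carry "FoxD1_GCE" with no further account of the reporter.

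Nephron progenitors sit as a condensed cap around each tip of the ureteric bud, and the interstitium, a loose fibroblast-like stroma, surrounds them. Matrix glycoproteins differ between such tissues. Versican is a large chondroitin sulphate proteoglycan that binds hyaluronan, and tenascin C modulates the adhesion of cells to fibronectin. Fibronectin is the adhesive fibril protein bound by integrins. Periostin, SPARC and SPARC-like 1 are matricellular proteins, which act on cells and on collagen assembly more than as structural parts. Matrilin 2 is an adaptor that links filaments of the matrix, and the fibrillins form the microfibrils on which elastic fibres are laid down.

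The stretch upstream of the start site is shown for Vcan, Tnc and Postn, because Vcan and Tnc were set against Postn. The sequences are the 250 bases before the start of each gene, on the gene's strand, from RefSeq (GRCm38.p6, the assembly of mm10). A start matching the deposited coordinates to within 5 bases was present for 4 of the 9 genes, the fourth being Sparc. Capitals mark matches on either strand to TATAAA (the TATA box), to CCAAT (the CCAAT box), to GGGCGG (the GC box bound by Sp1), to GGAATG (bound by TEAD factors) or to TGACTCA (bound by AP-1), and no matches to different motifs overlapped. The windows are chr13:89742513-89742762 on the minus strand for Vcan, chr4:64047016-64047265 on the minus strand for Tnc and chr3:54360857-54361106 on the plus strand for Postn.
Vcan: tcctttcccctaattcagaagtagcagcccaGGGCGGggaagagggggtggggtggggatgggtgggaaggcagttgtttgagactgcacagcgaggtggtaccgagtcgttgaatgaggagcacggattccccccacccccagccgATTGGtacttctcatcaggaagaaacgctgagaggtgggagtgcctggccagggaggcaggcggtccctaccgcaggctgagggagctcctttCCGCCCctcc
Tnc: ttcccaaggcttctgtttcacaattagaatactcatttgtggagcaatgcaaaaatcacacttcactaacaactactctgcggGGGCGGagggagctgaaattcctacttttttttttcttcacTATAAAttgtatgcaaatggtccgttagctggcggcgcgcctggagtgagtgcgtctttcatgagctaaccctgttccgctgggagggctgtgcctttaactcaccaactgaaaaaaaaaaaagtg
Postn: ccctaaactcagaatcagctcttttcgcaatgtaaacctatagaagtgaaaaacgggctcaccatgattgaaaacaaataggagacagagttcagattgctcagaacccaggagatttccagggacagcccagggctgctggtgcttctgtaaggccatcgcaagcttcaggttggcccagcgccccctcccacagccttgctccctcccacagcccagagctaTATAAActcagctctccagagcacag
The Postn window held TATAAA 26 bases before the start, and the Tnc window held it 126 bases before the start. Across 32536 promoters of the same length, 12.3% held TATAAA. The Vcan window held CCAAT on the opposite strand 103 bases before the start and GGGCGG at 219 and 10 bases before it, the nearer on the opposite strand. Tnc held GGGCGG at 167 bases. CCAAT was present in 33.8% and GGGCGG in 33% of all promoters. GGAATG, present in 12.6%, and TGACTCA, present in 4.45%, were in none of the windows of the 4 genes, and Sparc held none of the motifs. The GC content was 62.4% for Vcan, 52% for Postn and 44.8% for Tnc, against a median of 52.4% over all promoters.

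Values are given as RPKM (reads scaled per kilobase of transcript and per mapped read total of the cell), and means are of log2(RPKM + 1) over cells with the SD between cells. A transcript counted as detected where its value in that cell reached 1 RPKM. No label names an embryo, so each group is 1 sample, no test between groups was made, and the SD and the 95% Clopper-Pearson intervals describe cells and counting error only. Read depth per cell is not given. The median number of detected genes per cell was 5210.5, 5178 and 3643 in E18.5 cap, interstitium and mutant cells, and 5566 and 4560 in E13.5 cap and mutant cells. Pax2 was detected in 56 of 74, 18 of 71 and 0 of 44 cells (up to 6.82% by the limit that a count of 0 allows) of the E18.5 groups in that order, and in 15 of 18 cap and 17 of 29 mutant cells at E13.5. How the allele changes the transcript is not given in the labels, so whether Pax2 reads in E13.5 cells go against their mutant label cannot be told, and the E13.5 comparison is one between cells so labelled. Six2, the defining cap progenitor gene, was detected in 62 of 74 E18.5 cap cells and Pdgfra, a stromal receptor gene, in 58 of 71 interstitium cells. However, 19 interstitium cells had Six2, while 7 E18.5 and 1 E13.5 cap cells had Pdgfra without Six2, and results that rest on these cells are given with and without them. The labelled mutant cap cells at E18.5 had Six2 in 1 of 44 cells and Pdgfra in 41. Of the other listed progenitor genes, Cited1, Eya1, Crym and Gdnf were detected in at most 2 of these cells. Meox1, Osr1 and Sall1 were detected in 3, 8 and 11, so the cap markers were sparse there but not all nearly absent. Each group has its own date in the titles and E18.5 mutant cells alone make up the assigned cells of pool 4, so group and date cannot be told apart. By Xist and Y-linked transcripts the E18.5 cap and both mutant groups were almost wholly female, and the interstitium and the E13.5 cap almost wholly male. Sex and group therefore cannot be told apart where the interstitium or the E13.5 cap is 1 side of a comparison. The sexes match in E18.5 mutant minus cap and between ages in the mutant.

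Vcan was the only one of the 5 opposed genes detected in every E18.5 cap cell, and it was lower and uneven in the interstitium and in the E18.5 mutant. The entry spans chr13:89655310-89742512 (mm10). In E18.5 cap cells Vcan ranged from 1.09 to 492 RPKM with a median of 148, and it was detected in 74 of 74 cells. In the interstitium the lowest, median and highest values were 0, 11.4 and 180 RPKM, with 52 of 71 cells detecting it. In E18.5 mutant cells they were 0, 4.06 and 405 RPKM, with 24 of 44 detecting it. The 3 groups overlapped, and some mutant cells lay above the cap median while 20 of 44 lay below detection. Mean levels were 6.82 ± 1.51 (SD, n = 74 cells), 3.53 ± 2.47 (n = 71) and 2.82 ± 2.85 (n = 44). The difference was -3.29 for interstitium minus cap, the sixth lowest of 11219 genes compared, and -4.00 for mutant minus cap. At E13.5 the cap cells had 0.0584, 70.1 and 257 RPKM as lowest, median and highest values, and the mutant cells 0, 48.6 and 330. These ranges overlapped over nearly their whole length, with means of 5.39 ± 2.05 (n = 18) and 4.58 ± 2.61 (n = 29). In the order E18.5 cap, E13.5 cap, E13.5 mutant, interstitium and E18.5 mutant, no neighbours differed by more than the spread between cells.

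Within the interstitium, Vcan was detected in 19 of 19 cells with Six2 and in 33 of 52 without it. Its median was 71.7 RPKM in the former and 4.67 RPKM in the latter. In the cap, the 7 cells with Pdgfra and no Six2 had a median Vcan of 17.5 RPKM, against 159 RPKM in the other 67. The within-group correlation of Vcan with Six2 was 0.50 over the 74 cap cells and 0.57 over the 71 interstitium cells. With Pdgfra it was -0.59 in the cap, where only 8 cells had Pdgfra, and -0.21 in the interstitium, where 58 had it. The cap cells come from 1 pool and the interstitium cells from 2, and depth is unknown. Vcan also correlated with the number of detected genes, with r of 0.52 in the cap and 0.54 in the interstitium. Without the cells whose markers went against their label, interstitium minus cap was -4.45. These cells were picked by Six2 and Pdgfra, with which Vcan correlated, so this value is no independent check. Among cells with 3000 to 5000 detected genes, mutant minus cap was -3.53, while mutant minus interstitium turned from -0.71 to 0.63. In the E18.5 mutant Vcan correlated with Pdgfra at an r of 0.36 over 44 cells, and the 24 cells with Vcan were among the 41 with Pdgfra.

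Tnc, the other gene set with Vcan, was present at E18.5 in all 3 groups and nearly absent at E13.5. The entry spans chr4:63959785-64047015. The E18.5 cap cells had 0, 3.55 and 178 RPKM as lowest, median and highest values, interstitium cells 0, 1.42 and 72.6, and mutant cells 0, 0 and 140. Detection followed the same order at 51 of 74, 36 of 71 and 11 of 44 cells. Means of 2.74 ± 2.25, 1.79 ± 1.90 and 1.21 ± 2.24 lay closer together than the spread between cells. At E13.5 Tnc was listed at 0 in 18 of 18 cap cells, which allows a share of detecting cells of up to 16.7%. In the E13.5 mutant 1 of 29 cells had it, at 5.13 RPKM. The gap between ages in the cap is therefore a contrast with a group at 0 and carries no fold. Of the cells with Tnc, 29 of 36 in the interstitium and 6 of 11 in the mutant also had Vcan. Over all cells of these groups, 52 of 71 and 24 of 44 had Vcan, which are similar shares. In the E18.5 cap Tnc was detected in 45 of 62 cells with Six2 and in 6 of 12 without. At 3000 to 5000 detected genes, Tnc mutant minus cap was -0.79, against -1.54 over all cells.

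**Figure D1:**
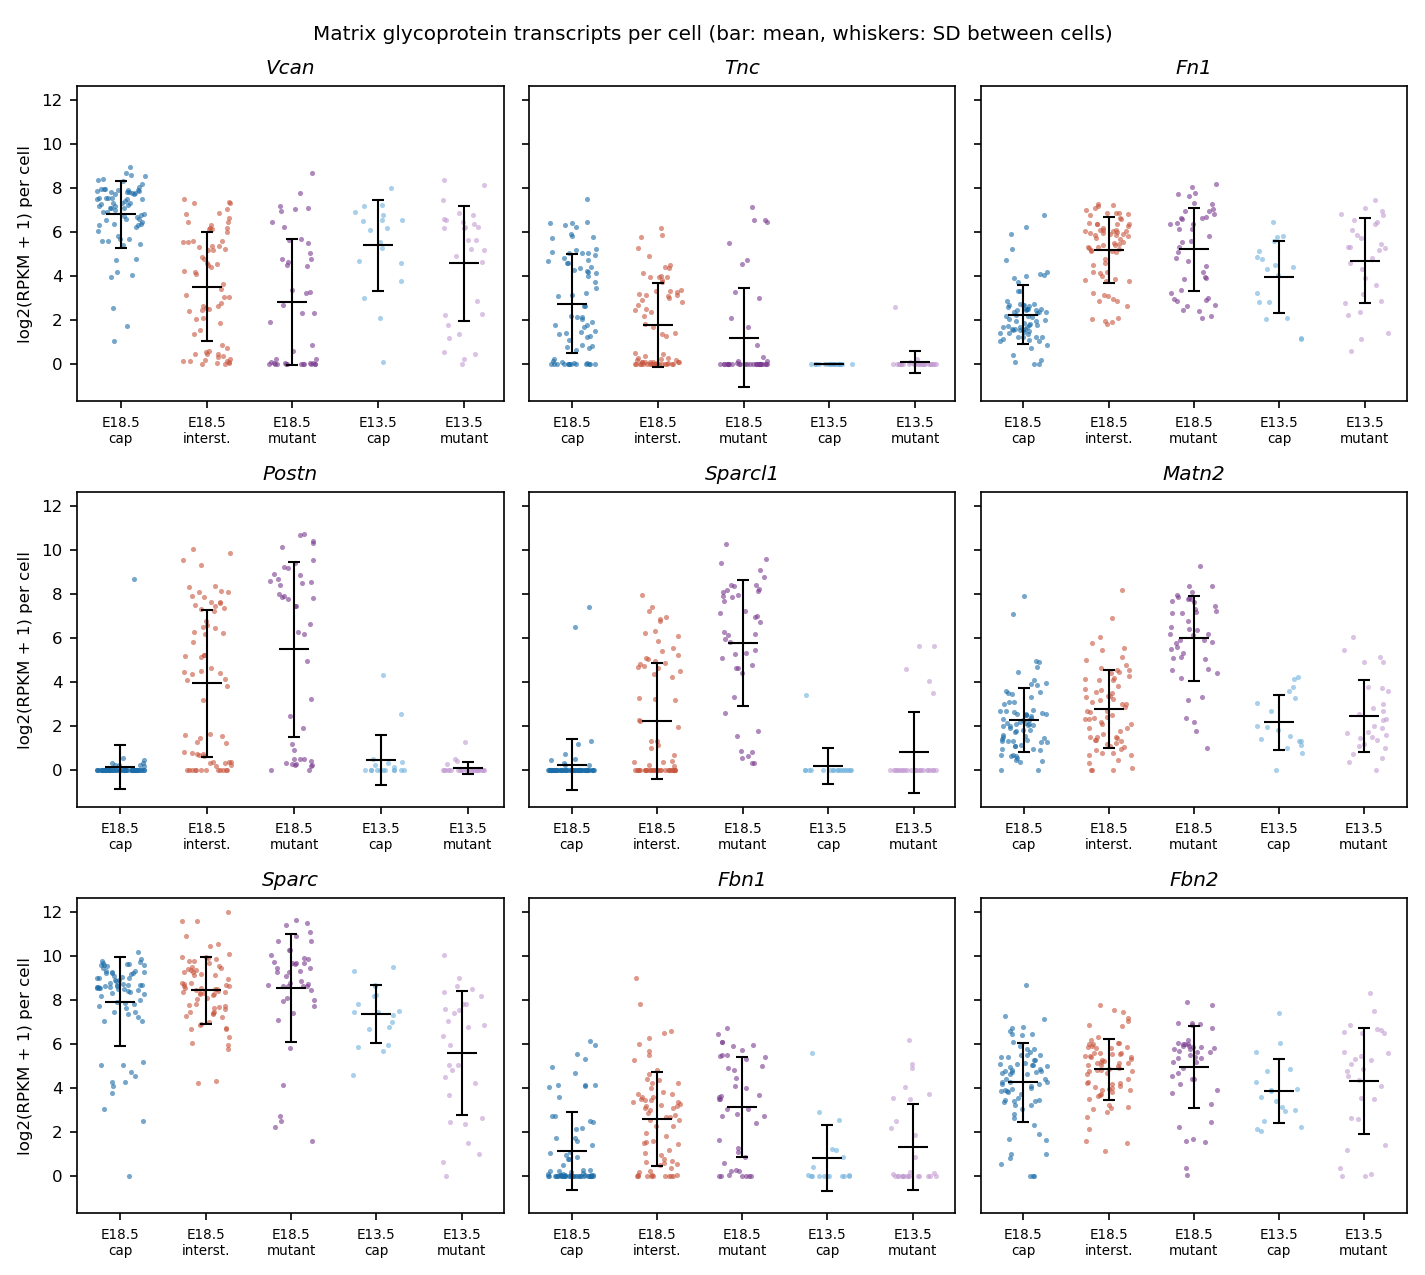
Each point is 1 cell, the vertical axis is log2(RPKM + 1), the horizontal axis gives the 5 groups, and the black bar and whiskers are the mean and SD between cells. Vcan sits high in the E18.5 cap (mean 6.82), Postn and Sparcl1 are spread upward in E18.5 interstitium and mutant cells, and Matn2 sits high in the E18.5 mutant (mean 5.99).

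Postn was detected in most E18.5 interstitium and mutant cells and in few cells of the other groups. The entry spans chr3:54361107-54391041. In the E18.5 cap 1 of 74 cells had it, at 418 RPKM, and that cell was among the 7 with Pdgfra and no Six2. Interstitium cells had 0, 19.9 and 1047 RPKM as lowest, median and highest values and 46 of 71 detected it. Mutant cells had 0, 173 and 1707 RPKM, and 31 of 44 detected it. Both groups ran from cells at 0 to cells far above 100 RPKM, and the mean levels of 3.94 ± 3.35 and 5.49 ± 3.98 average over this wide range. At E13.5 Postn was found in 2 of 18 cap cells, at no more than 19.1 RPKM, and in 1 of 29 mutant cells at 1.47 RPKM. In the order of the means, the step from interstitium to E13.5 cap was larger than the SD between cells, and the other steps were not. Postn was detected in 42 of 58 interstitium cells with Pdgfra and in 4 of 13 without. Without the cells that went against their labels, interstitium minus cap was 4.49, against 3.79 over all cells. Within pool 2, which held all cap cells and 22 interstitium cells, it was 4.52.

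Sparcl1 had the largest difference of the 9 genes between E18.5 mutant and E18.5 cap cells, and also between mutant and interstitium cells. This order did not hold among cells with 3000 to 5000 detected genes: Postn (5.67) was above Sparcl1 (4.94) for mutant minus cap, and Matn2 (4.11) above Sparcl1 (2.93) for mutant minus interstitium. The entry spans chr5:104079109-104114088. In mutant cells the lowest, median and highest values were 0.253, 74.4 and 1250 RPKM, and 38 of 44 cells detected it. Interstitium cells had 0, 0.357 and 245 RPKM, with 34 of 71 detecting it. E18.5 cap cells were listed at 0 in most cases, with 4 of 74 detecting it and a highest value of 172 RPKM. The upper part of the mutant range lay above all interstitium and cap cells, while the lower part overlapped both. Means were 5.78 ± 2.87 in the mutant, 2.24 ± 2.65 in the interstitium and 0.26 ± 1.15 in the cap. The step from mutant to interstitium, 3.54, was the fifth largest of 10903 genes in that comparison and larger than the SD between cells. At E13.5, 1 of 18 cap cells and 5 of 29 mutant cells detected Sparcl1, the latter at up to 49.5 RPKM. These 5 cells were among the 12 E13.5 mutant cells in which Pax2 was not detected. It was found in 0 of the 17 with Pax2, which allows a share of up to 17.6%. This split was noticed among several compared and is a description of few cells.

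The summed markers of mural and smooth muscle cells were higher in the E18.5 interstitium and mutant than in the E18.5 cap, as were Postn and Sparcl1. Unlike those 2 genes, the sum had a higher median in the interstitium than in the mutant. All 7 of 7 listed markers matched an entry. Their summed log2(RPKM + 1) ran from 0 to 22.6 in interstitium cells (median 9.47), from 0 to 27 in E18.5 mutant cells (median 7.30) and from 0 to 13 in E18.5 cap cells (median 0.0854). Rgs5 had the highest mean level of the 7 in each of these groups and was detected in 47 of 71, 18 of 44 and 11 of 74 cells. Pdgfrb was detected in 38, 15 and 5 of these cells, and Tagln in 4, 7 and 3. The contractile genes were sparse: Myh11 was detected in 0 interstitium and 2 mutant cells, and Acta2 in 18 and 7. Ren1 was detected in 2 interstitium cells and 1 mutant cell, and was at 0 in every E18.5 cap cell. The part of such cells in the Postn and Sparcl1 levels was not tested. The endothelial, immune, erythroid and ureteric lists had a median sum of 0 in each of the 5 groups.

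**Figure D2:**
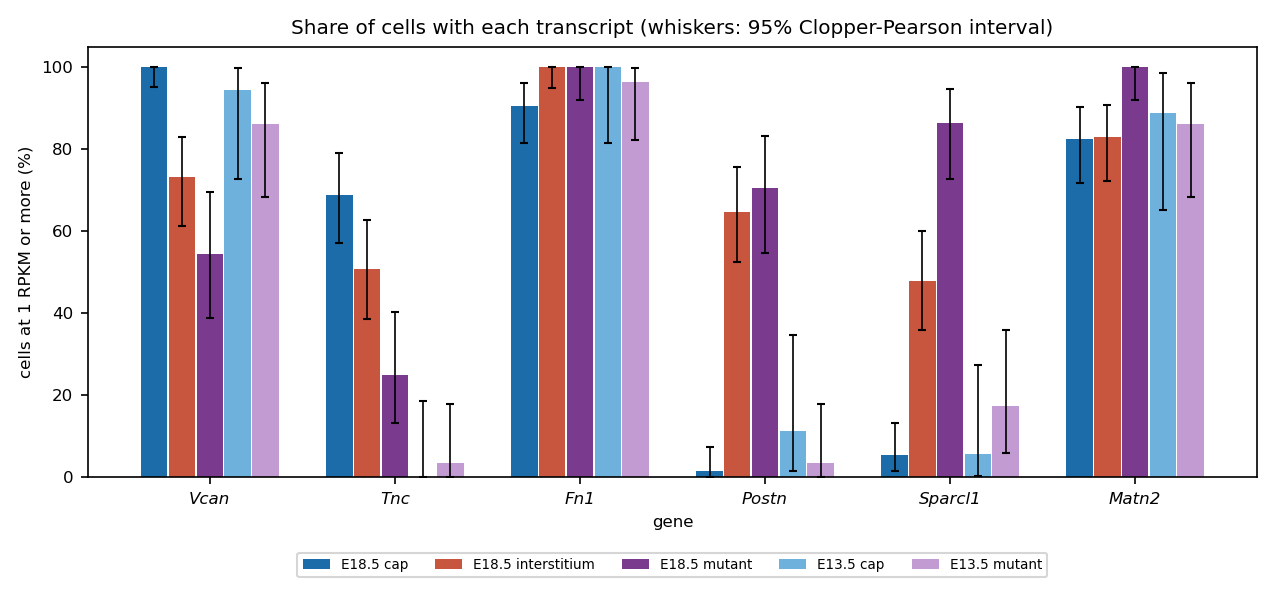
Bars give the share of cells at 1 RPKM or more for 6 genes, with 1 bar per group and whiskers for the 95% Clopper-Pearson interval. Vcan is in 100% of E18.5 cap and 54.5% of E18.5 mutant cells, and Sparcl1 in 5.41% and 86.4%.

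Fn1 differed more in level than in presence. The entry spans chr1:71585523-71653171. E18.5 cap cells had 0, 3.09 and 107 RPKM as lowest, median and highest values, and 67 of 74 detected it. Interstitium cells had 2.55, 46.5 and 156 RPKM, and mutant cells 3.23, 46.5 and 288 RPKM, with every cell of both groups detecting it. The interstitium and the mutant covered nearly the same range, and the upper quartile of the cap, 5.38 RPKM, lay below their lower quartiles of 16.9 and 9.12 RPKM. Means were 2.26 ± 1.35 in the cap, 5.19 ± 1.50 in the interstitium and 5.23 ± 1.89 in the mutant. At E13.5 the cap had 1.18, 19.7 and 87.9 RPKM and the mutant 0.538, 37.8 and 176 RPKM, with means of 3.95 ± 1.63 and 4.71 ± 1.95. The E18.5 cap was thus the low group of the 5, and its distance of 1.69 from the E13.5 cap was the only step in the order that exceeded the spread between cells. Within the interstitium Fn1 ran opposite to Six2, with r of -0.61 over 71 cells. Its median was 13.52 RPKM in the 19 interstitium cells with Six2 and 58.4 RPKM in the other 52. Interstitium minus cap for Fn1 was 3.52 without the cells that went against their labels and 2.63 within pool 2. The end of the Fn1 entry overlaps the Apol7d entry, which was detected in 16 cells, and entries that overlap Tnc, Vcan or Matn2 were each detected in at most 7 cells.

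Matn2 was detected in most cells of every group but stood apart in level in the E18.5 mutant. The entry spans chr15:34306681-34436240. Mutant cells had 1.01, 71.4 and 611 RPKM as lowest, median and highest values. The E18.5 cap had 0, 3.31 and 241 RPKM and the interstitium 0, 5.32 and 290 RPKM, so that single cells of both reached the mutant range while their medians lay well below it. At E13.5 the cap had 0, 2.76 and 18.1 RPKM and the mutant 0, 3.0 and 65.1 RPKM. The E18.5 mutant mean of 5.99 ± 1.92 exceeded that of the interstitium, 2.78 ± 1.77, by more than the spread between cells, and the means of the other groups lay between 2.18 and 2.78. Mutant minus interstitium for Matn2 was 3.21, the seventh largest of 10903 genes. Matn2 was therefore high in the mutant without being high in the interstitium, unlike Fn1 and Postn. Among cells with 3000 to 5000 detected genes, the mutant mean was 6.31 and the cap mean 2.42.

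Sparc, a collagen-binding protein, had the highest median RPKM, a level per transcript length, of the 9 genes in each group. The entry spans chr11:55394501-55420080. Median levels were 389, 359 and 587 RPKM in E18.5 cap, interstitium and mutant cells and 177 and 82.6 RPKM in E13.5 cap and mutant cells. Its share of the summed mean RPKM of the 9 genes ran from 45.8% in the E13.5 mutant to 65.2% in the interstitium. At E13.5 the cap ranged from 23.2 to 715 RPKM and the mutant from 0 to 1050 RPKM. The E13.5 mutant thus held cells below every E13.5 cap cell, with means of 5.59 ± 2.81 against 7.37 ± 1.31. Cells varied more within groups than Sparc means did between neighbouring groups.

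The 2 fibrillins differed in how many cells held them. Fbn1, on chr2:125300594-125507993, was detected in 24 of 74 E18.5 cap cells, 49 of 71 interstitium cells and 32 of 44 mutant cells. Its median and highest values were 0.0598 and 69.5 RPKM in the cap, 5.50 and 515 RPKM in the interstitium, and 10.4 and 107 RPKM in the mutant. The lowest value was 0 in every group, and at E13.5 Fbn1 was detected in 5 of 18 cap and 10 of 29 mutant cells. Fbn2, on chr18:58008623-58209926, was detected in at least 86.2% of the cells of each group. Its means of 4.27, 4.85 and 4.97 at E18.5 and of 3.88 and 4.35 at E13.5 did not differ beyond the spread between cells at any step. The share of the 9-gene sum held by Vcan was 24.4% in the E18.5 cap, 3.88% in the interstitium and 2.34% in the mutant. That of Postn was 0.877%, 12.3% and 20.2%, the cap share resting almost wholly on 1 cell at 418 RPKM. The sum itself was 647, 883 and 1610 RPKM in these groups, so the shares do not give levels. Mean Vcan was 158, 34.2 and 37.7 RPKM.

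The 2 sides were also compared inside single cells, as the mean log2(RPKM + 1) of Vcan and Tnc minus that of Postn, Sparcl1 and Fn1. This balance was 3.89 ± 1.94 in the E18.5 cap, -1.14 ± 2.66 in the interstitium and -3.49 ± 2.55 in the E18.5 mutant. It was above 0 in 71 of 74, 23 of 71 and 3 of 44 cells. The quartiles of the cap (2.98 to 5.20) and of the mutant (-5.63 to -1.49) lay apart, while their full ranges overlapped. Those ranges were -4.04 to 7.27 in the cap and -7.94 to 1.53 in the mutant. The interstitium ran from -6.62 to 5.27 and overlapped both, with its mean between theirs. The E13.5 groups lay closer together, at 1.16 ± 1.24 for the cap and 0.47 ± 1.44 for the mutant, above 0 in 14 of 18 and 19 of 29, with broad overlap. In the E18.5 cap, 3 cells lay below 0. As the genes were chosen with earlier results of these data known, the balance describes the groups and is no independent check.

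The opposed transcripts were not mutually exclusive. Vcan and Postn were both detected in 36 of 71 interstitium cells and in 17 of 44 E18.5 mutant cells. Within those groups their levels were close to uncorrelated, with r of -0.01 and -0.06. Postn was detected in 1 of 74 cap, 46 of 71 interstitium and 31 of 44 mutant cells, and Sparcl1 in 4, 34 and 38. They were found together in 0 of 74 cap cells, which allows a share of up to 4.05%, where at most 1 could hold both. In the interstitium they were found together in 22 of 71 cells and in the mutant in 27 of 44. Their levels within the interstitium and the mutant had r of -0.07 and 0.10. Of the 27 mutant cells with both, 8 lacked Vcan and Tnc and 5 had both of those too. Fn1 and Vcan had r of -0.38 in the interstitium and 0.26 in the mutant.

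**Figure D3:**
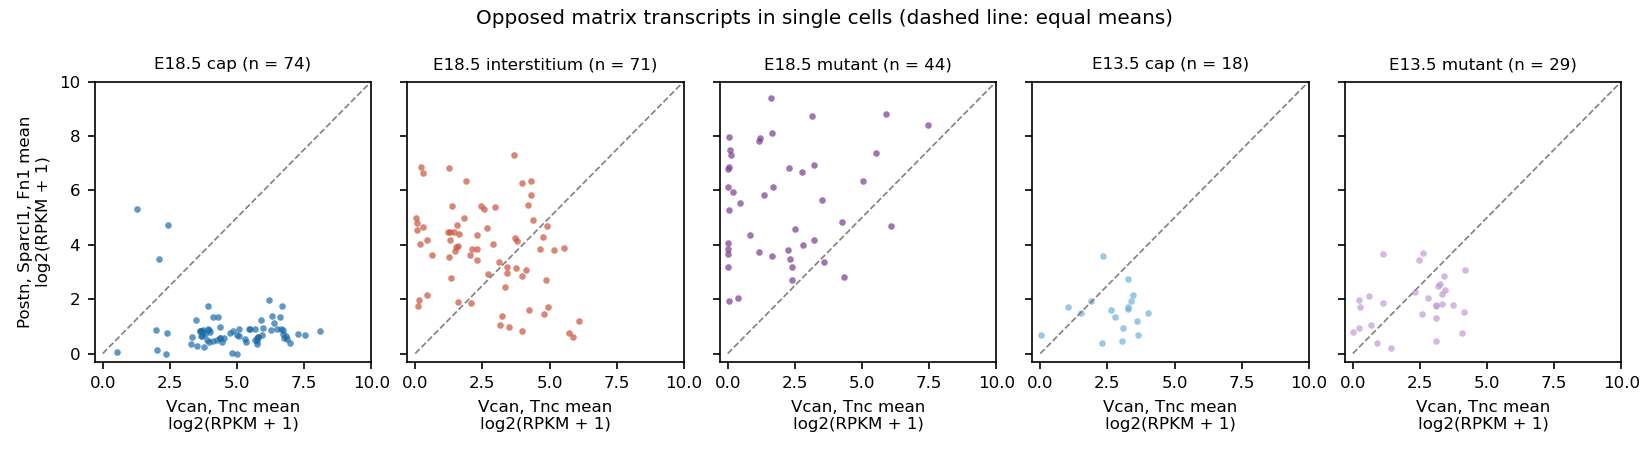
Each point is 1 cell, with the mean log2(RPKM + 1) of Vcan and Tnc on the horizontal axis and that of Postn, Sparcl1 and Fn1 on the vertical axis, in 1 panel per group. Points below the dashed line, where the means are equal, number 71 of 74 in the E18.5 cap and 3 of 44 in the E18.5 mutant.

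The 9 genes were then read against all genes, counting a difference of 1 log2 unit or more among genes detected in at least 10% of the cells of either group. As the 9 were chosen with earlier results of these data known, the counts are descriptions. For E18.5 interstitium minus cap, 4 of 9 were higher (Postn 3.79, Fn1 2.93, Sparcl1 1.99 and Fbn1 1.45), where 5.94% of 11219 genes were. Postn and Sparcl1, detected in 1 and 4 of 74 cap cells, passed the filter through the interstitium alone. Vcan was the 1 gene lower, where 2.7% of genes were, and Tnc, at -0.96, fell just short. The differences of Postn, Fn1 and Vcan were larger than the SD between cells. The median over the 9 was 0.58, beside 0.01 over all genes. Without the cells that went against their labels, 2 were lower, Vcan at -4.45 and Tnc at -1.45. Within pool 2 the values were -3.06 for Vcan, -1.15 for Tnc, 2.63 for Fn1, 1.32 for Sparcl1 and -0.13 for Matn2.

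For E18.5 mutant minus cap, 5 of 9 were higher by 1 log2 unit, where 4.51% of 11100 genes were. Another 2 were lower, a share near the 23.2% of all genes. The higher members were Sparcl1 (5.53, the seventh largest of all genes), Postn (5.34, the ninth), Matn2 (3.71), Fn1 (2.97) and Fbn1 (1.99). Sparcl1 and Postn were detected in 4 and 1 of 74 cap cells and passed the filter through the mutant cells alone. Their sizes and ranks therefore rest on a group near 0. Over the alternatives Sparcl1 ran from 2.98 to 8.32 and Postn from 3.17 to 7.84. Vcan at -4.00 and Tnc at -1.54 were the lower ones. Of these 7, Fbn1 and Tnc differed by less than the SD between cells. The median over the 9 was 1.99, beside -0.40 over all genes. Detected gene number was lower in the mutant, and among cells with 3000 to 5000 genes the values were 4.94 for Sparcl1, 5.67 for Postn, 3.90 for Matn2 and 3.06 for Fn1. Pool, date and genotype cannot be told apart in this comparison.

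For E18.5 mutant minus interstitium, 3 of 9 were higher, where 2.05% of 10903 genes were, and none was lower, where 23.4% were. The higher members were Sparcl1 (3.54), Matn2 (3.21) and Postn (1.55), of which Postn lay within the SD between cells. Fn1 (0.04), Sparc (0.11) and Fbn2 (0.12) had nearly equal means in the 2 groups. This comparison shares the mutant cells with the one before it, and its 2 groups come from different pools.

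For cells labelled mutant minus cap at E13.5, both from pool 3 and of opposite sex, 8 of the 9 passed the detection filter and Tnc did not. None of the 8 was higher by 1 log2 unit, where 1.43% of 11449 genes were, and Sparc, at -1.79, was the 1 gene lower, where 27.7% were. The opposed genes each differed by less than 1 log2 unit: Vcan -0.82, Fn1 0.76, Sparcl1 0.62 and Postn -0.39. None of the 8 differences, Sparc included, was larger than the SD between cells. The median over the 8 was 0.38, beside -0.45 over all genes. Whether the mutant difference itself changes with age was not tested, since each age has 1 sample per genotype.

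Between ages in the wild-type cap, Tnc and Vcan (1.42) were the 2 of 8 genes higher at E18.5, where 2.53% of 11423 genes were. Tnc, listed at 0 in the E13.5 cap, passed the filter through the E18.5 cap alone. Fn1, at -1.69, was the 1 lower, a share near the 14.5% of all genes, and Sparcl1 did not pass the filter. Between ages in the mutant, 6 of 9 were higher at E18.5, where 6.69% of 10872 genes were. They were Postn (5.41, the fourth largest of all), Sparcl1 (4.97), Matn2 (3.52), Sparc (2.96), Fbn1 (1.81) and Tnc (1.11), of which the first 4 were larger than the SD between cells. Postn and Tnc, each detected in 1 of 29 E13.5 mutant cells, passed the filter through the E18.5 mutant alone. Vcan, at -1.76, was the 1 lower, a share near the 11.5% of all genes. Vcan was thus higher at E18.5 than at E13.5 in the wild-type cap and lower at E18.5 in the mutant, both by less than the SD between cells and with no test of the difference, and on the ratio of mean RPKM the mutant value was not past 1 log2 unit. Age cannot be told apart from pool and date in both of these comparisons.

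**Figure D4:**
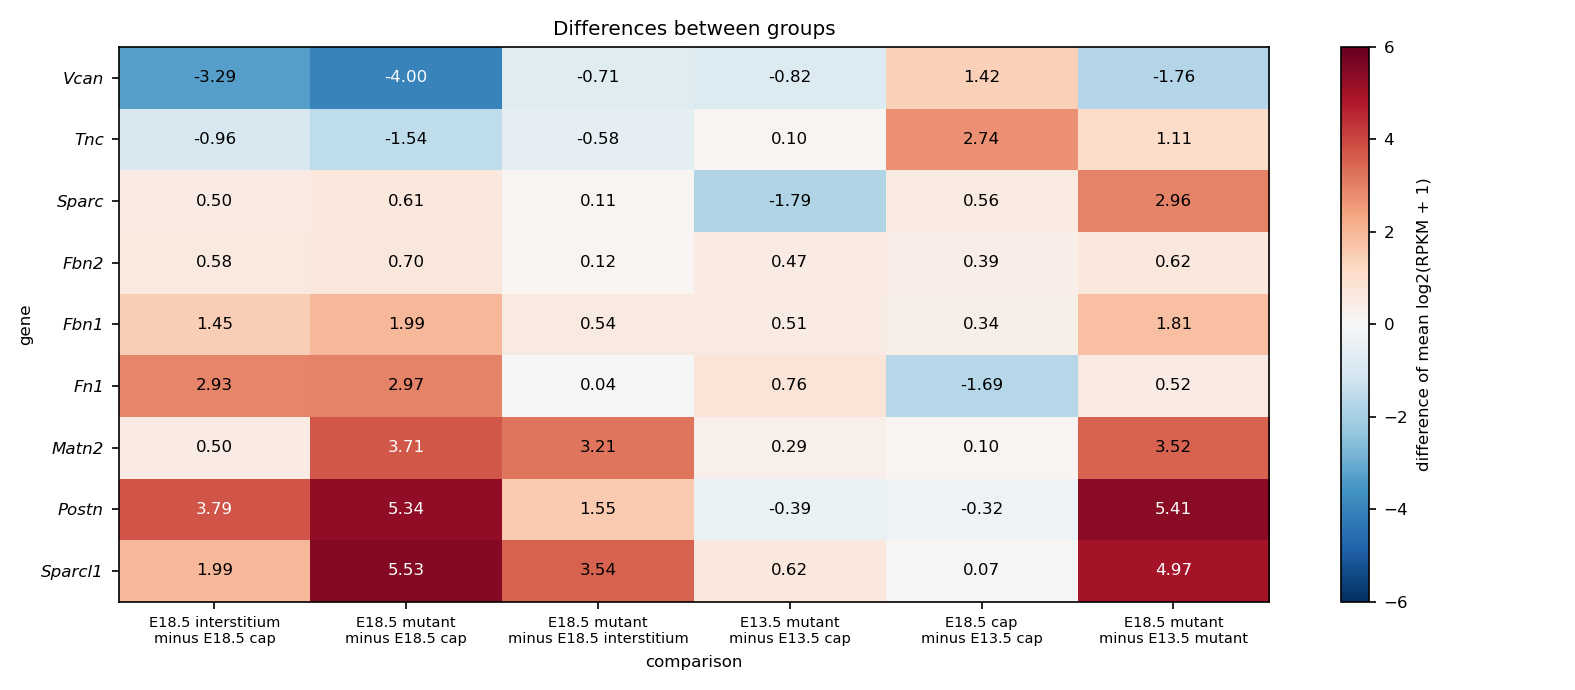
Each square gives the difference of mean log2(RPKM + 1) for 1 gene (rows) in 1 comparison (columns), with red for higher in the first group and blue for lower. Vcan is blue and Postn and Sparcl1 red in both comparisons with the E18.5 cap, and the E13.5 column holds no value above 0.76.

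Related matrix genes were described with 5 lists. The shares of all genes to read their counts against are those above: 5.94% higher and 2.7% lower for interstitium minus cap, 4.51% and 23.2% for mutant minus cap, and 2.05% and 23.4% for mutant minus interstitium. Of the fibrillin and elastic fibre partners, 16 of 19 passed the filter for interstitium minus cap, 11 were higher by 1 log2 unit and 0 lower, with a list median of 1.69 beside 0.01 over all genes. The largest were Fbln5 (3.39), a fibulin that binds elastin, Emilin1 (3.29), Loxl1 (2.76), a crosslinking enzyme, Eln (2.34), elastin itself, Mfap4 (2.21) and Mfap2 (2.19). Among the higher genes, Fbln5, Mfap5, Lox and Fbln2 were detected in 3, 4, 4 and 5 of 74 cap cells. They passed the filter through the interstitium alone, so their sizes rest on a group near 0. For mutant minus cap, 15 passed, 10 were higher and 1, Ltbp1 at -1.50, was lower, with a median of 1.53 beside -0.40. Mfap5 (2.75), a microfibril protein, Ltbp4 (2.62), a binder of latent TGF-beta, Emilin1 (2.43) and Fbln1 (2.37) led there. Of these, Mfap5 passed the filter through the mutant cells alone. Between the mutant and the interstitium 16 passed, 2 were higher and 4 lower, the latter a share near the 23.4% of all genes. Fbln5 (-2.37), Efemp2 (-2.04), Eln (-1.27) and Loxl1 (-1.12) were lower in the mutant, and Ltbp4 (1.70) and Mfap5 (1.20) higher. Fbn1 (0.54) and Fbn2 (0.12) differed by less than 1 log2 unit there.

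Among 21 matricellular relatives of Postn, Sparc and Tnc, 11 passed the filter for interstitium minus cap, 6 were higher and 2 lower, with a median of 1.07. Cyr61 (Ccn1, 3.17), Fstl1 (3.06), a SPARC family protein, Wisp1 (Ccn4, 2.73), Smoc2 (1.99), Thbs1 (1.33) and Ctgf (Ccn2, 1.07) were higher. Of these, Wisp1, Smoc2 and Ctgf were detected in 6, 4 and 2 of 74 cap cells and passed the filter through the interstitium alone. Spock2 (-2.20) and Tgfbi (-1.37), a relative of periostin, were higher in the cap. For mutant minus cap, 9 passed, 4 were higher and 2 lower, the latter a share near that of all genes, with a median of 0.98. Smoc2 (3.47) and Fstl1 (2.94) were again higher and Spock2 (-2.68) and Tgfbi (-1.56) lower. Here Smoc2 passed the filter through the mutant cells alone. Mutant minus interstitium was -3.07 for Cyr61 and -1.85 for Wisp1, in a comparison where 23.4% of all genes were lower. Of the matrilin and adhesive glycoprotein list, 6 of 13 passed in each comparison with the E18.5 cap, with 3 higher and 0 lower in the interstitium (median 0.98) and 1 higher and 1 lower in the mutant (median -0.37). Egfl6 (1.07), 1 of the 3 higher in the interstitium, was detected in 1 of 74 cap cells and passed through the interstitium alone. Ecm1 was 3.65 higher in the interstitium and 1.28 higher in the mutant than in the cap. Mfge8, an integrin-binding secreted protein, was lower in the mutant than in the cap (-2.69).

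Of 16 hyaluronan and versican partners, 7 passed the filter for interstitium minus cap, with 1 higher (Adamts5, a protease that cleaves versican, at 2.43) and 1 lower (Has2, a hyaluronan synthase, at -1.52) and a median of 0.11. For mutant minus cap 7 passed, 1 was higher and 2 lower, the latter a share near the 23.2% of all genes, with a median of -0.15. Adamts5 was at 2.03 and Has2 at -1.24, and Hmmr, which is also a mitotic spindle gene, at -2.07. Among the E18.5 groups the cap was thus lowest in Adamts5 and highest in Has2, both named for the size of their difference. Adamts1 (0.38), Adamts9 (0.27) and Adamts15 (0.11) on the same list hardly differed for interstitium minus cap. A link of any of these genes to Vcan was not tested. The integrin receptor list held 13 genes, integrin subunits and Sdc4, which encodes a syndecan proteoglycan and no integrin. Of these, 9 passed for interstitium minus cap, with Itga9 (2.03), Itgav (1.76) and Itgb1 (1.19) higher and Itga8 (-1.62) lower. The list median was 0.81. For mutant minus cap 8 passed, 0 were higher and 2 lower, Itga8 (-2.58) and Sdc4 (-1.55), with a median of 0.04, so the lower share was near the 23.2% of all genes. For mutant minus interstitium, where 23.4% of all genes were lower, 0 of 9 were higher and 3 lower: Itgav (-1.69) and Itgb1 (-1.22), which encode fibronectin receptor subunits, and Itga9 (-1.03). At E13.5, 2 of 14 elastic fibre genes were higher in the mutant than in the cap, Mfap2 (1.21) and Emilin1 (1.17), and 3 were lower. Of the other lists 0 genes were higher. Lower were 1 of 9 matricellular, 1 of 7 adhesive and 2 of 8 hyaluronan genes. On the integrin receptor list 3 of 9 genes were lower. Over all genes 1.43% were higher and 27.7% lower in that comparison.

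**Figure D5:**
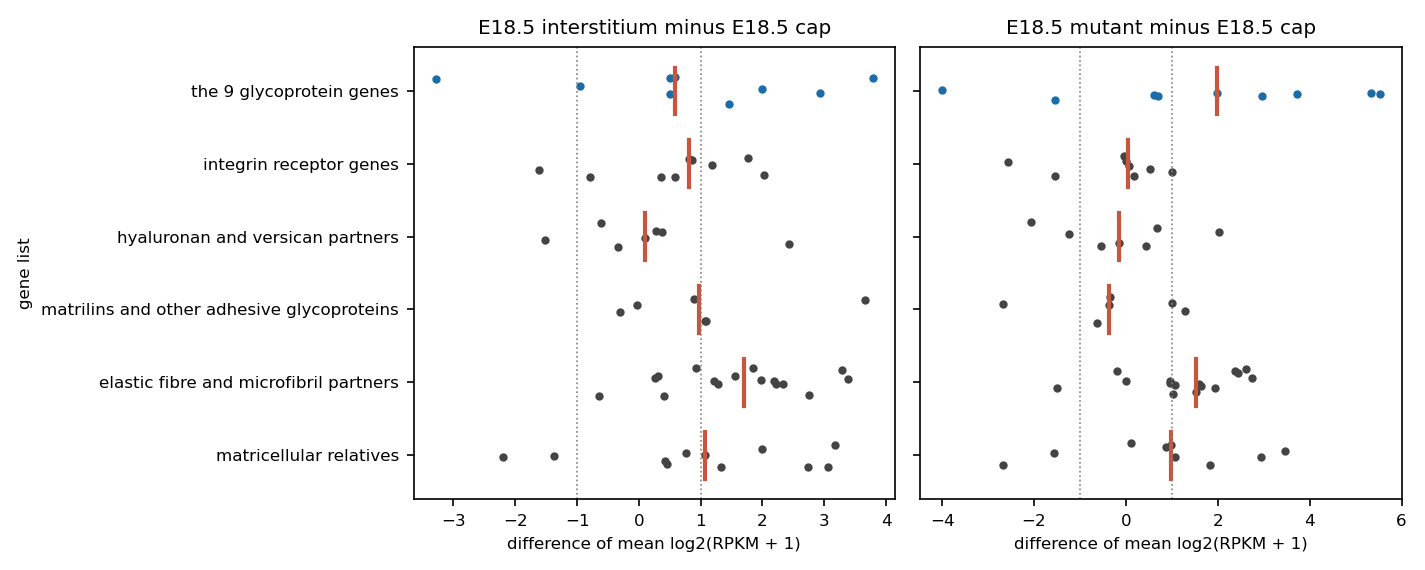
Points are genes of each list that passed the detection filter, placed by their difference of mean log2(RPKM + 1) on the horizontal axis, with the list median as a red line and dotted lines at 1 and -1. The elastic fibre list has its median at 1.69 for interstitium minus cap and 1.53 for mutant minus cap, and the 9 glycoprotein genes (blue) spread furthest to both sides.

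The genes whose cell-to-cell pattern was most like each member were taken by Pearson r over all grouped cells, among 10491 genes, and are given with the r after group means were removed. The cells span 3 pools and several dates that go with the groups, their depth is unknown, and the correlations carry no test. For Vcan they were Robo2 (0.62, 0.41 within groups), Six2 (0.60, 0.38), Crym (0.60, 0.39), Enc1 (0.56, 0.41) and Me2 (0.56, 0.36). Tnc had no close match, the highest being Six3 at 0.38, or 0.19 within groups. For Postn the collagen genes Col3a1 (0.72, 0.48) and Col1a2 (0.66, 0.38) stood beside Plac9b, Plac9a and Gm9780 (each 0.72), near-identical copies whose reads may be shared. For Fn1 they were Col3a1 (0.62, 0.36), Col1a1 (0.60, 0.32), Col1a2 (0.59, 0.33), Nfib (0.57, 0.25) and Nfia (0.56, 0.31). Sparcl1 was most like the Plac9 copies, Pdgfra (0.57) and Meg3 (0.57), but within groups the last 2 fell to 0.14 and 0.15. Matn2 was most like Rian (0.61, 0.32), Dlk1 (0.58, 0.24) and Meg3 (0.58, 0.23), with Gm4788 and Col6a1 following. Sparc was most like Fstl1 (0.45, 0.42), Fbn1 like Col1a1 (0.50, 0.34) and Fbn2 like Igf2r (0.36, 0.33).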

How the data were processed

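Single cells of mouse embryonic kidney were prepared on a Fluidigm C1 after flow sorting, per the labels' protocols. Expression was deposited by the authors as RPKM values in 1 table of 36186 entries and 237 cells. Reads were aligned with TopHat to mm10, per the submitters' processing notes. The aligner's version, the annotation and how reads were counted are not given in the sources used here, so reads of overlapping entries may be shared, and depth is unknown. Low values did not fall on whole-read steps (median of 14.0% in the 3 fullest bins over 225 pairs of cells). No 2 cells were identical (highest r 0.809).

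From these values log2(RPKM + 1) was taken and averaged per group, with Python 3.11.15, pandas 2.3.3, numpy 2.4.6 and scipy 1.17.1. All cells were kept, and no doublet caller was used. A difference was counted at 1 log2 unit among genes detected in at least 10% of either group's cells. The computation of differences was tested on simulated data. Groups follow the labels for lineage, genotype and age, and 1 cell whose source name says cap and whose cell type says interstitial was left out. Neighbouring groups in an order of levels were called apart where the gap exceeded the root mean square of the 2 SDs. Older symbols in the table (Cyr61, Ctgf, Wisp1) were matched by gene ID. Cells going against their label were wild-type interstitium cells with Six2 and wild-type cap cells with Pdgfra and no Six2. Leaving them out is no independent check for genes whose levels go with Six2 or Pdgfra.

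The 9 genes, the 5 lists and the marker lists were chosen with earlier results of these data known. Named list genes are those at 1 log2 unit or more, up to 6 for each list and comparison, and the 5 most similar genes stand beside each member. The Apol7d entry, the Sparcl1 split by Pax2 and the cells against their label were chosen after values were seen. Alternatives tried were pseudocounts of 0.1 and 10, other scalings, detection limits, no filter, matched gene number, and leaving out cells by pool, by marker or with 20000 RPKM or more of LOC100503946, an entry that takes a large share of some cells.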

Additional observations from a re-analysis of the deposited data

How the results depend on the processing

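No paired analysis was possible because the labels link no cells across groups. Of 522 differences of single genes under the alternatives, 513 moved by less than the spread between cells, 9 moved by more and 0 reversed a difference of 1 log2 unit or more. The balance of Vcan and Tnc against Postn, Sparcl1 and Fn1 moved by less than the spread between cells in every group and alternative, including interstitium cells of pool 2 or pool 3 alone, which were added after seeing the data. Counts of the 9 genes are small, so a gene near the limit moves them. For interstitium minus cap, 2 genes were higher with a pseudocount of 10, and 2 were lower with a pseudocount of 0.1, on the ratio of mean RPKM, in pool 2, without cells at 20000 RPKM of LOC100503946 and without cells against their label. For E18.5 mutant minus cap, 1 gene was lower with a pseudocount of 10, on the ratio of mean RPKM and at 3000 to 5000 detected genes. For mutant minus interstitium, 2 were lower with a pseudocount of 0.1. For E13.5 mutant minus cap, 1 was higher with a pseudocount of 0.1, with median-ratio scaling, on the ratio of mean RPKM and without cells high in LOC100503946, 4 were higher at 3000 to 5000 genes, where only 2 cap cells remain, and 2 were lower with a pseudocount of 0.1. For E18.5 cap minus E13.5 cap, 0 were lower with a pseudocount of 10 and at 3000 to 5000 genes. For E18.5 mutant minus E13.5 mutant, 0 were lower with a pseudocount of 10 and on the ratio of mean RPKM. Cells with both Vcan and Postn made up 50.7% of the interstitium and 38.6% of the E18.5 mutant at 1 RPKM, 80.3% and 75% at any value above 0, and 33.8% of the interstitium at 5 RPKM. The cause of these changes was not tested. Median-ratio scaling moved the median of all genes from -0.40 to -0.26 for E18.5 mutant minus cap, from -0.41 to -0.29 for mutant minus interstitium and from -0.45 to -0.31 for E13.5 mutant minus cap. Depth per cell is unknown, so a value of 0 for Tnc, Postn or Sparcl1 cannot be told from a transcript that was missed.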

Other observations

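The cell whose source name says E13.5 cap mesenchyme and whose cell type label says interstitial had 88.8 RPKM of Vcan, 5.46 RPKM of Fn1, 11.3 RPKM of Matn2, 215 RPKM of Sparc and 25.4 RPKM of Fbn2. Tnc and Postn were listed at 0 in it, Sparcl1 was at 0.181 RPKM and Fbn1 at 2.17 RPKM. All 9 values lie within the ranges of both the E13.5 cap and the interstitium cells.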
